A study of Mus musculus with 5 samples.

Results

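The genes described here are 10 genes of smooth muscle cells and pericytes, chosen by name: *Acta2*, *Tagln*, *Cnn1*, *Cnn2*, *Myh11*, *Cald1*, *Tpm2*, *Tpm4*, *Rgs5* and *Myocd*. They are 10 of the 13486 genes with a tag in at least 1 of 5 Tag-seq libraries of the mouse heart at embryonic day 10.5 (Theiler stage 17). 4 libraries came from wild-type C57BL/6 embryos, from the atrioventricular canal (AVC), the outflow tract (OFT), the atria and the ventricles. The fifth came from the AVC of *Twist1* knockout embryos of the ICR strain, called *Twist1* null AVC below. Each library is a pool of hand-dissected embryos, with fewer embryos in the null pool than in the wild-type pools, and each group has 1 library. No spread between replicates was therefore measured, and every test below compares libraries, not conditions. Strain and genotype change together in the null library and cannot be told apart. The level of *Twist1*, the targeted gene, was 918 TPM (tags per 1000000 listed tags) in the wild-type AVC and 4.55 TPM in the null AVC.

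Smooth muscle cells contract by sliding actin and myosin filaments, and the 10 genes cover the parts of that machine and its control. *Acta2* encodes the smooth muscle actin, *Myh11* the smooth muscle myosin heavy chain, and *Tagln*, *Cnn1*, *Cnn2*, *Cald1*, *Tpm2* and *Tpm4* encode proteins that bind the actin filament. *Rgs5* encodes a regulator of G protein signalling that marks pericytes, the mural cells of small vessels, and *Myocd* encodes myocardin, a coactivator of serum response factor (SRF) at smooth and cardiac muscle genes. Several of these genes, *Acta2*, *Tagln* and *Myocd* among them, are also active in heart muscle of the embryo, so that their tags need not come from smooth muscle. In dissected tissue, fewer cells of a type and less RNA per cell cannot be told apart.

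Tag-seq cuts cDNA with the enzyme NlaIII at CATG and counts the 17 bases that follow, so each gene is read as 1 or more tag types that lie at different sites. The 10 genes gave 57 tag types, 40 in 3′ untranslated regions (UTR) and 17 in coding sequence. The most abundant 2 tag types of each gene are shown, because the values below are sums of them and they do not always move together. Some tag types whose direction differed from that of the leading tag type of their gene follow. Capitals mark the NlaIII site, sequences run 5′ to 3′ on the strand of the gene, and positions are in GRCm38 (GENCODE M21 transcripts).
*Acta2* leading tag type, 3′ UTR, minus strand, chr19:34241517-34241537: CATGtgctacccttaacttgt
*Acta2* second tag type, coding, minus strand, chr19:34246101-34246121: CATGaagatcctgactgagcg
*Tagln* leading tag type, 3′ UTR, minus strand, chr9:45930238-45930258: CATGggcagctcccacctatc
*Tagln* second tag type, coding, minus strand, chr9:45931308-45931328: CATGttccagactgttgacct
*Cnn1* leading tag type, 3′ UTR, plus strand, chr9:22108594-22108614: CATGcctggaaacgcagtgga
*Cnn1* second tag type, 3′ UTR, plus strand, chr9:22108298-22108318: CATGgcgtcctcccagccccc
*Cnn2* leading tag type, 3′ UTR, plus strand, chr10:79995269-79995289: CATGacccacacgggcccctg
*Cnn2* second tag type, 3′ UTR, plus strand, chr10:79994853-79994873: CATGggtgtccttggtgggac
*Myh11* leading tag type, 3′ UTR, minus strand, chr16:14194549-14194569: CATGgtcactttcactaataa
*Cald1* leading tag type, 3′ UTR, plus strand, chr6:34775345-34775365: CATGttctgtgaatctgccat
*Cald1* second tag type, 3′ UTR, plus strand, chr6:34773918-34773938: CATGtgctagactattatatt
*Tpm2* leading tag type, 3′ UTR, minus strand, chr4:43514900-43514920: CATGgttcccttccctcctgt
*Tpm2* second tag type, coding, minus strand, chr4:43519025-43519045: CATGgaccaagccctcaagtc
*Tpm4* leading tag type, 3′ UTR, plus strand, chr8:72152438-72152458: CATGttacatctttccttcac
*Tpm4* second tag type, 3′ UTR, plus strand, chr8:72151956-72151976: CATGaccaaatattttgtgtt
*Rgs5* leading tag type, 3′ UTR, plus strand, chr1:169695394-169695414: CATGgctcacagtacttaagt
*Rgs5* second tag type, 3′ UTR, plus strand, chr1:169693318-169693338: CATGcttctgcagtctaaggg
*Myocd* leading tag type, 3′ UTR, minus strand, chr11:65176759-65176779: CATGctgtagaaagtagctgt
*Myocd* second tag type, 3′ UTR, minus strand, chr11:65177458-65177478: CATGaattgctattacaggag
*Tagln* 3′-most tag type, 3′ UTR, minus strand, chr9:45929864-45929884: CATGttgggctcacacgttcc
*Tpm2* other 3′ tag type, 3′ UTR, minus strand, chr4:43514932-43514952: CATGgtttttgtctgtgtcac
*Cald1* minor tag type, 3′ UTR, plus strand, chr6:34775091-34775111: CATGctcatgttaatgaggcc
*Myh11* had no second tag type. The last 3 lines show tag types whose direction differed from that of the leading tag type of their gene in at least 1 comparison. Not all tag types that did so are shown.

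All 10 leading tag types lay in a 3′ UTR, and 6 of them at the NlaIII site nearest to the transcript end. The leading tag types of *Acta2*, *Cnn2*, *Cnn1* and *Tagln* lay at the 4th, 5th, 10th and 3rd site from that end. The coding tag types of *Tpm2* and *Tpm4* at related positions differ by 1 base, written G3A (*Tpm2* base, position counted from the first base after CATG, *Tpm4* base), and were kept apart by it.

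Libraries held 4223810 to 12977237 tags, and a tag type had to reach 6 tags to be listed, which is 0.462 TPM in the null AVC and 0.988 to 1.42 TPM in the wild-type libraries. A gene at 0 below is one whose tag types all stayed under that limit. The AVC listed 43 of their tag types, the OFT 45, the null AVC 43, the atria 15 and the ventricles 18. Haemoglobin tags made up 22.0% of the atria library and 0.367% to 4.75% of the others. Intervals on levels are exact 95% intervals that cover counting error only.

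The OFT held the highest level of 9 of the 10 genes among the 4 wild-type libraries, whereas the OFT was highest for 31.9% of all 12964 genes with a wild-type tag. Their summed level was 2277 TPM in the OFT, 1232 TPM in the AVC, 538 TPM in the ventricles and 412 TPM in the atria. The null AVC, at 1655 TPM, lay between the AVC and the OFT, but without *Acta2* it lay below the AVC, at 939 TPM against 1112 TPM. The exception to the OFT order was *Myh11*.

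*Acta2* gave 119.8 TPM for the AVC, 399 TPM for the OFT, 101.6 TPM for the atria, 184 TPM for the ventricles and 716 TPM for the null AVC. The ventricles stood above the AVC for this gene, and the null AVC stood highest of all 5 libraries. *Myh11*, which marks mature smooth muscle, had 6 tags in the AVC (0.988 TPM, interval 0.362 to 2.15) and was at 0 in the other 4 libraries. The defining myosin of smooth muscle was thus at or under the listing limit in every library.

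*Tagln*, which encodes the actin-binding protein SM22 alpha, gave 172 TPM for the AVC, 444 TPM for the OFT, 51.4 TPM for the atria, 70.6 TPM for the ventricles and 113 TPM for the null AVC. The calponins bind actin and slow the myosin ATPase. *Cnn1* gave 201 TPM for the AVC, 249 TPM for the OFT, 132 TPM for the atria, 141 TPM for the ventricles and 192 TPM for the null AVC. *Cnn2* gave 202 TPM for the AVC, 226 TPM for the OFT, 54.0 TPM for the atria, 40.7 TPM for the ventricles and 292 TPM for the null AVC. *Cnn1* was the most even of the 7 genes listed in all 4 wild-type libraries, with 1.89-fold between the highest and the lowest, and *Cnn2* split into a high pair (AVC and OFT) and a low pair (atria and ventricles).

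*Cald1* encodes caldesmon, which holds myosin off the actin filament. *Cald1* gave 95.1 TPM for the AVC, 172 TPM for the OFT, 29.8 TPM for the atria, 36.7 TPM for the ventricles and 87.7 TPM for the null AVC. The tropomyosins run along the actin filament and set which proteins can reach it. *Tpm2* gave 197 TPM for the AVC, 264 TPM for the OFT, 31.1 TPM for the atria, 26.5 TPM for the ventricles and 157 TPM for the null AVC. *Tpm4* gave 231 TPM for the AVC, 325 TPM for the OFT, 12.2 TPM for the atria, 30.5 TPM for the ventricles and 80.1 TPM for the null AVC. All 3 genes were high in the AVC and the OFT and low in both chambers, and the null AVC fell between for each.

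The OFT gave 178 TPM of *Rgs5*, against 6.86 TPM for the null AVC, 3.95 TPM for the AVC, 1.89 TPM for the ventricles and 0 for the atria. The OFT was the only library in which it passed 10 TPM. *Myocd* gave 9.05 TPM for the AVC, 19.0 TPM for the OFT, 0 for the atria, 5.92 TPM for the ventricles and 10.9 TPM for the null AVC. It was the lowest of the genes after *Myh11* in the OFT, at 100 tags, and it was not listed in the atria.

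**Figure D1:**
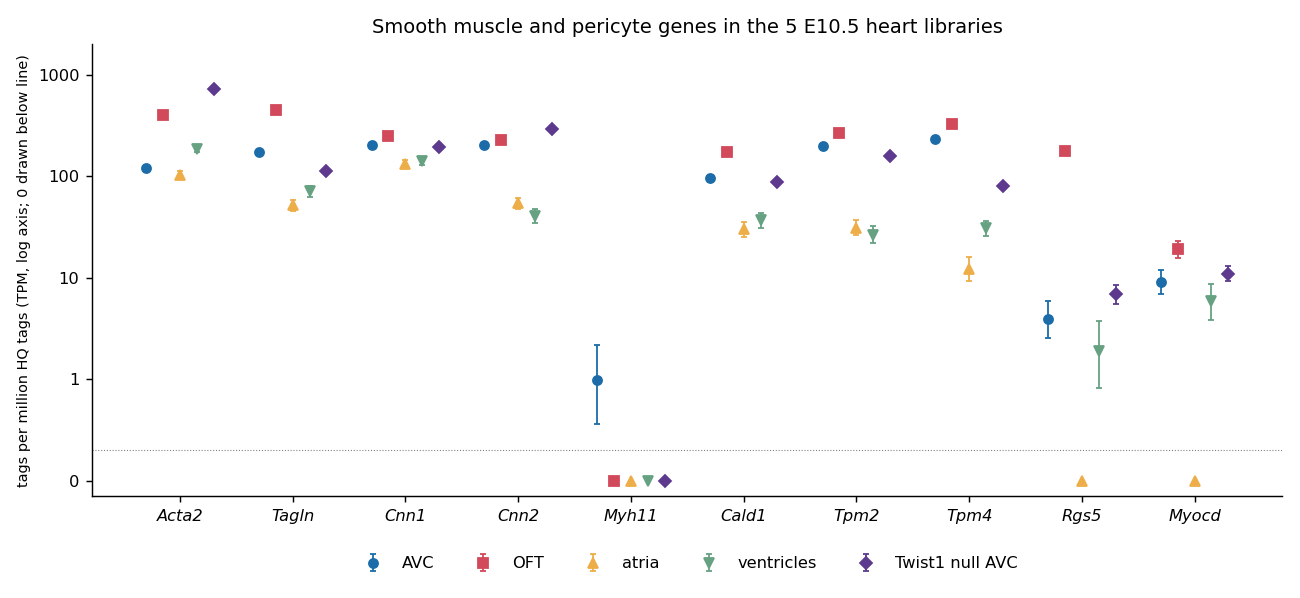
Level of each gene in each library in TPM on a log axis, with genes at 0 drawn below the dotted line and exact 95% counting intervals as bars. There is 1 library per group. The OFT squares are the highest wild-type points for 9 of 10 genes, and the null AVC is highest for *Acta2* and *Cnn2*.

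The AVC was first set against the atria and ventricles as 1 sum, to ask which genes mark the cushion-forming canal. At an unadjusted exact p under 0.05 (edgeR exact test, dispersion 0.12) 8 of the 10 passed as higher and none as lower. Of all genes tested 43.4% were called higher and 8.12% lower, so the share of the 10 genes stands beside a high background. *Myh11* is 1 of the 8 and was listed only through the AVC, at the smallest listed count, so its call says little. *Tpm4* was 11.1-fold higher in the AVC (exact p = 1.32e-05), *Tpm2* 6.83-fold (exact p = 0.000331) and *Cnn2* 4.23-fold (exact p = 0.00556). *Cald1* was 2.88-fold higher (exact p = 0.0401) and *Tagln* 2.84-fold higher (exact p = 0.0411).

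*Rgs5* was 4.39-fold higher in the AVC than in the chambers, with 24 tags against 8 (exact p = 0.0241). *Myocd* was 3.22-fold higher, with 55 tags against 25 (exact p = 0.0399). *Myh11* was called on 6 tags against 0 (exact p = 0.0391), which gives no fold because both are within the listing limit, where a 0 can hide 5 tags. *Cnn1* was at 201 TPM against 136 TPM in the chambers (1.47-fold, exact p = 0.440), and *Acta2* at 119.8 TPM against 140.9 TPM (1.18-fold lower, exact p = 0.747). Those 2 genes did not pass the test.

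The median log2 ratio was 1.61 over the 10 genes and 0.93 over all genes tested. TMM normalization moved every AVC ratio by -0.95 on the log2 scale. It left 2 genes called higher, *Tpm4* and *Tpm2*, beside 25.6% of all genes, and put *Cnn1* at -0.39. For the settings that follow, the share of all genes called is not given here. After Benjamini-Hochberg adjustment 3 genes stayed under 0.05 (*Tpm4*, *Tpm2* and *Cnn2*). The same 3 were called when the atria library was left out and the ventricles alone were the control, and 7 were called when the ventricle library was left out.

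The OFT was then set against the same 2 chamber libraries, so the pair of comparisons shares its controls. 8 of the 9 genes tested were called higher and none lower, beside 40.6% of all genes called higher and 8.88% lower. *Rgs5* was 198-fold higher, with 940 tags against 8 (exact p = 9.70e-14), *Tpm4* 15.6-fold (exact p = 1.16e-06) and *Tpm2* 9.13-fold (exact p = 4.79e-05). *Tagln* was 7.33-fold higher (exact p = 0.000199), *Myocd* 6.75-fold (exact p = 0.000985) and *Cald1* 5.19-fold (exact p = 0.00179).

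*Cnn2* was 4.75-fold higher in the OFT than in the chambers (exact p = 0.00293) and *Acta2* 2.83-fold higher (exact p = 0.0410). *Cnn1* was at 249 TPM against 136 TPM (1.83-fold, exact p = 0.231). The median log2 ratio was 2.76 over the 9 genes and 0.82 over all genes. TMM normalization moved every ratio by -0.86 and left 6 genes called, beside 26.2% of all genes. *Acta2* (log2 ratio 0.65) and *Cnn2* (1.39) were the 2 genes it took from the called ones. After Benjamini-Hochberg adjustment 7 genes stayed under 0.05, all but *Acta2* and *Cnn1*. The share of all genes that did so is not given here.

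**Figure D2:**
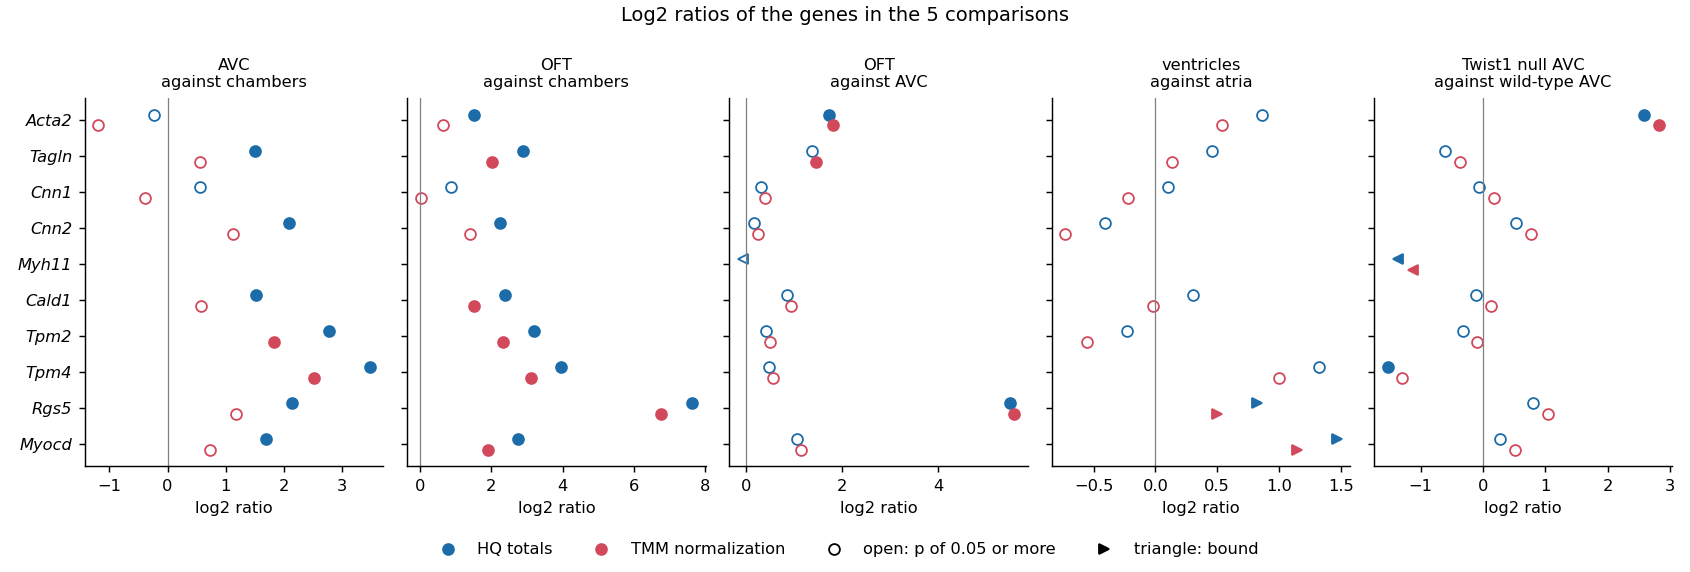
Log2 ratio of each gene in the 5 comparisons, with HQ totals (the sum of all listed tags) in blue and TMM normalization in red. Filled symbols have an unadjusted exact p under 0.05, triangles are bounds against a gene at 0, and the horizontal scales differ. TMM moves the AVC ratios by -0.95 and the OFT ratios by -0.86, and *Rgs5* stands apart in both OFT panels.

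Set directly against the AVC, the OFT was higher for *Rgs5* and *Acta2*, 2 genes of 10 where 5.22% of all genes were called higher and 7.35% lower. For *Rgs5* the OFT gave 178 TPM and the AVC 3.95 TPM, a 45.2-fold difference (exact p = 9.05e-10, adjusted p = 2.33e-06). *Acta2* was at 399 TPM and 119.8 TPM, a 3.33-fold higher level (exact p = 0.0192, adjusted p = 0.243). *Tagln* missed the threshold at 2.58-fold (exact p = 0.0618) and passed it under TMM normalization, with a log2 ratio of 1.45, where 6.39% of all genes were called higher. The other actin-binding genes had log2 ratios of 0.17 (*Cnn2*) to 0.85 (*Cald1*), with exact p from 0.242 to 0.818. *Myocd*, at 19.0 TPM and 9.05 TPM, was 2.10-fold higher (exact p = 0.171).

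The *Acta2* difference rested on 1 tag type. Its leading tag type gave 387 TPM for the OFT and 112 TPM for the AVC, while the other 7 tag types together had 66 tags and 47 tags. Without tags that start with T after CATG, which leaves out that tag type, the OFT stood 1.47-fold above the AVC for *Acta2* (exact p = 0.481). *Rgs5* was higher in the OFT for each of its 6 tag types. The leading one gave 131 TPM for the OFT and 2.47 TPM for the AVC, and 4 of the 6 were not listed in the AVC.

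Between the chambers, *Myocd* and *Rgs5* were called higher in the ventricles than in the atria, 2 of the 9 genes tested beside 11.1% of all genes, and none was called lower beside 9.03%. Neither was listed in the atria. *Myocd* had 25 tags in the ventricles, at least 2.76-fold more (exact p = 0.000115, adjusted p = 0.00807), and *Rgs5* had 8 tags, at least 1.77-fold more (exact p = 0.0254). With 5 tags put in for each missing tag type neither was called. The other 7 genes did not pass the test. *Tpm4* came nearest, at 30.5 TPM against 12.2 TPM (2.50-fold, exact p = 0.0854), and *Cnn2* and *Tpm2* lay 1.33-fold and 1.17-fold lower in the ventricles.

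In the *Twist1* null AVC, *Acta2* was called higher than in the wild-type AVC, and *Tpm4* and *Myh11* were called lower. Of all genes 11.9% were called higher and 12.7% lower, so neither share of the 10 genes is far from the background. *Acta2* was at 716 TPM in the null and 119.8 TPM in the wild type, 5.98-fold higher (exact p = 0.000705, adjusted p = 0.0170). *Tpm4* was at 80.1 TPM and 231 TPM, 2.89-fold lower (exact p = 0.0376, adjusted p = 0.172). The *Tpm4* call was lost with TMM normalization, at a log2 ratio of -1.29, with DESeq2 size factors and with the leading tag type only. *Myh11* was at 0 in the null and had 6 tags in the wild type, at least 2.56-fold lower (exact p = 0.0254, adjusted p = 0.132). It was listed only through the wild type, its call was lost with 5 tags put in for the missing tag type, and it could not be tested with more than 10 tags per tag type or 1 listing limit in TPM.

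The 7 other genes did not pass the test in the null AVC. *Tagln* was 1.52-fold lower (exact p = 0.404), *Tpm2* 1.26-fold lower (exact p = 0.649) and *Cald1* 1.08-fold lower (exact p = 0.873). *Cnn1* was at 192 TPM and 201 TPM (exact p = 0.928). *Cnn2* was 1.45-fold higher (exact p = 0.462), *Rgs5* 1.74-fold higher on 89 tags against 24 (exact p = 0.352) and *Myocd* 1.21-fold higher (exact p = 0.745). These 7 ratios lay both above and below equal levels, and no common direction can be read from them. The median log2 ratio was -0.09 over the 10 genes and -0.25 over all genes tested.

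The rise of *Acta2* in the null AVC came from the same single tag type as its OFT value. That tag type had 681 tags (112 TPM) in the wild type and 9188 tags (708 TPM) in the null. The other tag types of *Acta2* were together at 7.74 TPM and 8.01 TPM, with 47 and 104 tags. The tag type starts with T after CATG. In the 1708 genes with at least 100 tags of both kinds, the log2 ratio of null to wild type was compared within each gene. For tags that begin with T it was above that of the remaining tags by a median of 1.42 (quartiles 0.33 and 2.47). It was above in 1383 of those genes. Of the tag types of the 10 genes listed in both AVC libraries, 3 that begin with T were higher in the null and 6 lower (median log2 ratio -0.47). Of those with another first base, 11 were higher and 15 lower (median -0.35). The part of this property in the *Acta2* value was not tested. Without tags that start with T, *Acta2* was 1.32-fold higher in the null (exact p = 0.609).

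The same property of tags moves with the chamber comparisons, in the other direction. The log2 ratio of tags that begin with T minus that of the remaining tags of a gene had a median of -0.92 over 739 genes for the AVC against the chambers and of -0.82 over 674 genes for the OFT. For the OFT against the AVC the median was 0.09 over 887 genes. Without those tags *Acta2* was 5.26-fold higher in the AVC than in the chambers, on 47 tags against 11 (exact p = 0.00872). With them it had been 1.18-fold lower, on 728 tags against 1253. All 11 chamber tags came from 1 tag type in the ventricles. The other *Acta2* tag types that do not start with T were not listed in either chamber. The leading tag types of *Cald1* and *Tpm4* also start with T. *Cald1* was then seen by 24 tags in the AVC and none in the chambers.

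*Tpm4* was lower in the null AVC at each of its 4 tag types. The leading tag type was at 165 TPM in the wild type and 71.8 TPM in the null, 2.29-fold lower. The next 2, which do not start with T, were at 43.0 TPM and 4.16 TPM, 10.3-fold lower, and at 21.2 TPM and 3.16 TPM, 6.72-fold lower. The last of these 2 also matches 1 other GENCODE gene, in a transcript that RefSeq does not link to. Without tags that start with T, *Tpm4* was 6.87-fold lower (exact p = 0.000395), which is more than with them. Both of these tag types were also near 0 in the atria and ventricles, at 0 to 2.60 TPM, where the leading tag type was at 10.7 TPM and 27.9 TPM.

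**Figure D3:**
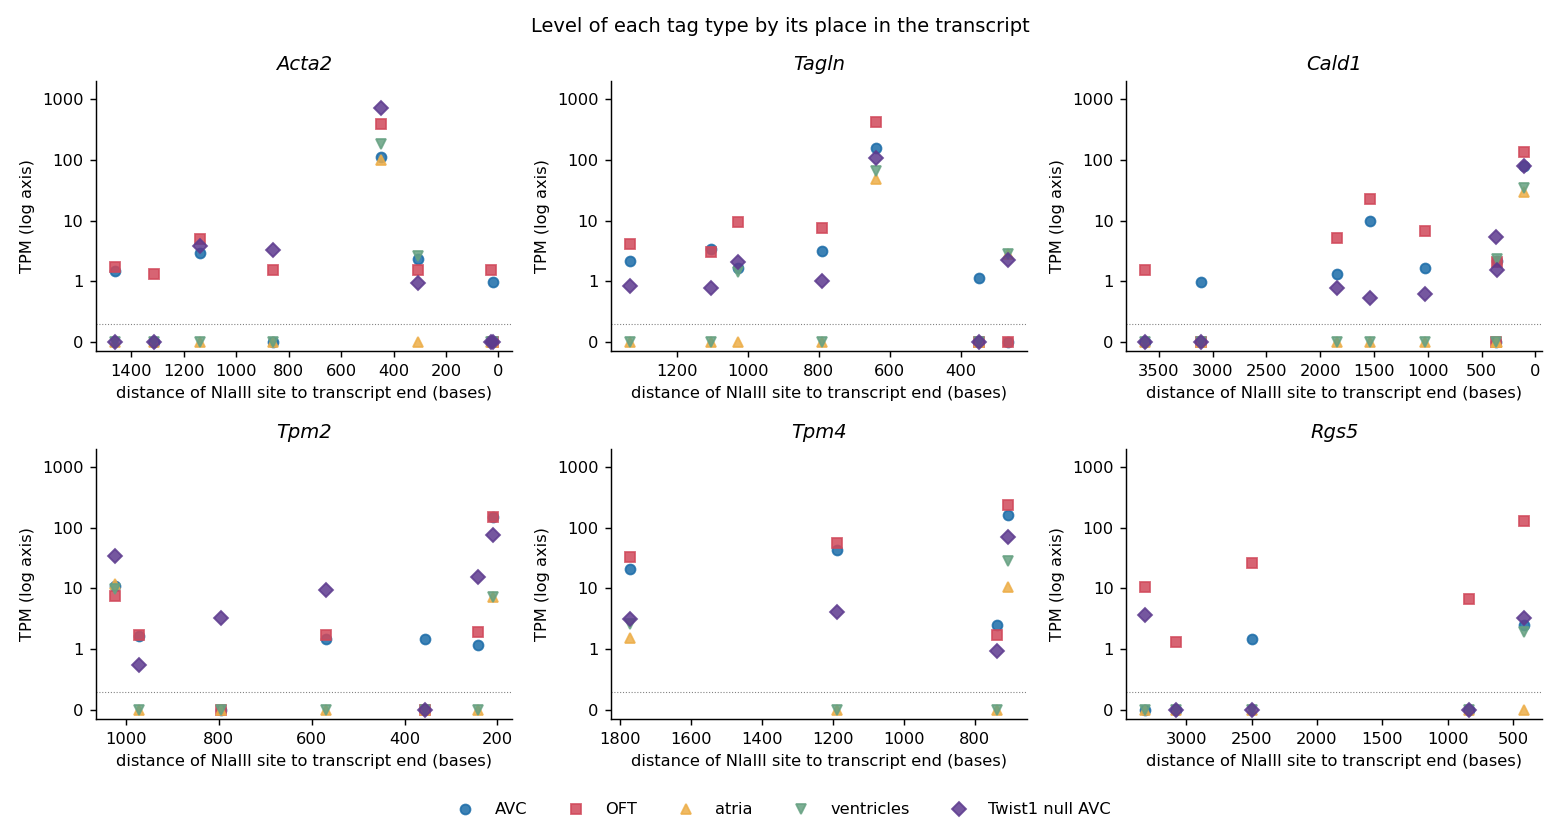
Level of each tag type of 6 genes by the distance of its NlaIII site from the end of the transcript that holds the leading tag type, in bases, with TPM on a log axis and tag types at 0 drawn below the dotted line. *Acta2* rises to 708 TPM in the null AVC at 1 site, whereas *Tpm4* is lower in the null than in the wild-type AVC at all 4 sites.

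*Cald1* and *Tpm2* held tag types that moved apart in the null AVC. The leading *Cald1* tag type was at 79.3 TPM in the wild type and 78.8 TPM in the null, but its second tag type, farther inside the 3′ UTR, was at 9.71 TPM and 0.539 TPM. The second tag type was not listed in either chamber, where the leading one was at 29.8 TPM and 34.3 TPM. For *Tpm2* the leading tag type was 1.96-fold lower in the null, at 77.6 TPM against 152 TPM, and the second 3.40-fold lower, at 6.01 TPM against 20.4 TPM. Another 3′ UTR tag type was higher in the null, at 15.7 TPM against 1.15 TPM. The 8 *Tpm2* tag types other than the leading one were together higher in the null, at 79.6 TPM against 45.4 TPM.

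A *Cald1* tag type that holds a second NlaIII site within its 17 bases had 70 tags (5.39 TPM) in the null AVC and was not listed in the other 4 libraries.

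The make-up of the *Tpm2* tags also differed between regions. Of its tags the leading tag type took 77.0% for the AVC, 57.2% for the OFT, 23.4% for the atria, 27.7% for the ventricles and 49.4% for the null AVC. Its second tag type lies in coding sequence, at the NlaIII site nearest to the end of a second transcript, and gave 70.6 TPM for the OFT against 20.4 TPM in the AVC, while the leading tag type was level at 151 TPM and 152 TPM. The gene sum thus joins tag types with different patterns.

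In *Cnn2* a minor tag type was at 1.32 TPM in the wild-type AVC and 16.0 TPM in the null, 12.2-fold higher, while the leading one was at 189 TPM and 255 TPM. In *Tagln* the tag type nearest to the transcript end was listed in the atria (2.79 TPM), the ventricles (2.84 TPM) and the null AVC (2.23 TPM) and not in the AVC or the OFT, opposite to its leading tag type, which gave 419 TPM for the OFT and 48.6 TPM for the atria. In *Cnn1* the leading tag type took over 96% of tags in every library (96.5% to 100%).

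**Figure D4:**
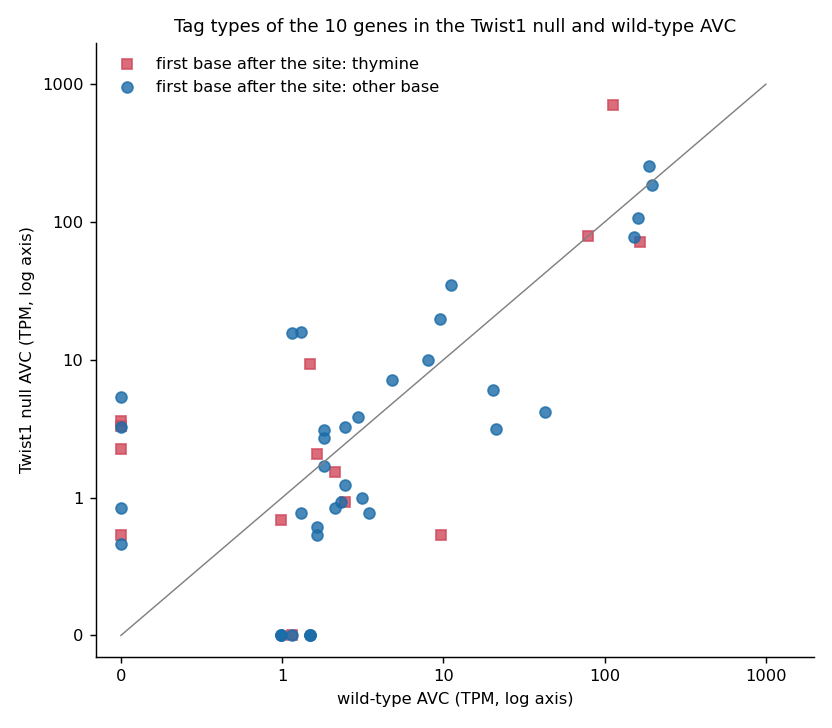
Level of each tag type of the 10 genes in the wild-type AVC (horizontal) and the *Twist1* null AVC (vertical), both in TPM on log axes, with tag types at 0 drawn on the axis and the line of equal levels in grey. Red squares start with thymine after the NlaIII site. The red square at the top is the leading tag type of *Acta2*, at 112 TPM and 708 TPM.

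Close relatives of the genes share parts of the same filaments. Of 20 relatives tested, 8 were called higher and 2 lower in the AVC than in the chambers, beside 43.4% of all genes called higher, with a median log2 ratio of 0.47. With TMM normalization 4 were called higher and 4 lower, with a median of -0.48. *Tpm1*, the main striated muscle tropomyosin, was at 2650 TPM in the AVC, 2830 TPM in the OFT, 613 TPM in the atria and 1129 TPM in the ventricles. It was lower in the null AVC, at 780.1 TPM (exact p = 0.0169). *Tagln2* was also lower in the null, at 95.3 TPM against 268 TPM (exact p = 0.0423). Of 21 relatives 1 was called higher in the null, *Rgs16*, and 4 lower, the others being *Rgs12* and *Myh14*. Of all genes, 11.9% were called higher and 12.7% lower in the null. With TMM normalization 2 relatives were called higher and 3 lower.

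The actins went different ways. *Actc1*, the cardiac actin, was the highest, at 5782 to 13856 TPM over the 5 libraries, and *Acta1*, the skeletal actin, was at 152 TPM in the AVC and 826 TPM in the ventricles. *Actg2*, the enteric smooth muscle actin, gave 5.93 TPM for the AVC, 6.07 TPM for the OFT, 17.1 TPM for the atria, 24.1 TPM for the ventricles and 16.5 TPM for the null AVC. Both were called lower in the AVC than in the chambers, *Acta1* at exact p = 0.0117 and *Actg2* at exact p = 0.0233. Among relatives of *Rgs5*, *Rgs4* was higher in the OFT than in the AVC, at 10.6 TPM against 2.47 TPM (exact p = 0.0157). *Rgs16* gave 7.21 TPM for the OFT and 0 for the other wild-type libraries. *Rgs10* was lower in the OFT than in the AVC, at 4.37 TPM against 16.0 TPM (exact p = 0.0238). Of the 21 relatives, 2 were called higher and 1 lower in that comparison, beside 5.22% and 7.35% of all genes.

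Other genes of the contractile machine and of SRF targets were taken as a list of 21 genes. 14 were called higher and 2 lower in the AVC than in the chambers, and 12 higher and 2 lower in the OFT, with median log2 ratios of 1.61 and 2.11. The shares of all genes called higher were 43.4% and 40.6%. With TMM normalization 10 were called higher in each, and 2 and 3 lower, beside 25.6% and 26.2% of all genes called higher. *Actn1*, which cross-links actin, was at 931 TPM in the AVC and 1638 TPM in the OFT against 98.0 TPM in the chambers. *Des*, the muscle intermediate filament desmin, was at 352 TPM in the OFT against 19.6 TPM. The smooth muscle light chain *Myl9* was abundant everywhere, at 628 to 1873 TPM, and smoothelin (*Smtn*) gave 63.7 TPM for the AVC, 33.6 TPM for the OFT, 7.71 TPM for the atria, 3.55 TPM for the ventricles and 22.0 TPM for the null AVC.

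In the null AVC none of the 21 genes was called higher and 3 were called lower, *Smtn* (exact p = 0.0385), *Synm* (exact p = 0.000565) and *Synpo2* (exact p = 0.000376). Of all genes, 11.9% were called higher and 12.7% lower in the null. With TMM normalization 1 of the 21 was called higher and 2 lower. Only *Synpo2* was called higher in the OFT than in the AVC, at 16.3 TPM against 2.47 TPM (exact p = 0.00165), while *Fhl2*, *Mylk* and *Itga8* were called lower. Of all genes, 5.22% were called higher and 7.35% lower in that comparison. 16 regulators of smooth muscle genes were also listed. *Srf* gave 73.4 TPM for the AVC, 104.8 TPM for the OFT, 9.21 TPM for the atria, 5.45 TPM for the ventricles and 54.2 TPM for the null AVC. Against the chambers 9 regulators passed as higher for the AVC, 10 for the OFT and none as lower, whereas TMM normalization gave 6 and 8 higher and 2 lower in each. These 16 genes stand beside the same shares of all genes, and their median log2 ratio for the AVC was 1.10 where that of all genes was 0.93. None was called between the OFT and the AVC. *Klf4*, a factor that represses smooth muscle genes, was at 32.1 TPM in the AVC, 47.8 TPM in the OFT and 0 in both chambers. It was lower in the null AVC at 4.55 TPM (exact p = 0.000425). In the null 0 of the 16 regulators were called higher and 2 lower, beside 11.9% and 12.7% of all genes. TMM normalization gave the same 2 counts.

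Markers of pericytes and mural cells were few. Of 11 genes, *Kcnj8*, *Higd1b*, *Vtn* and *Foxf2* were at 0 in every library, and 7 were listed for the AVC, 6 for the OFT, 3 for the atria, 2 for the ventricles and 7 for the null AVC. *Pdgfrb*, the receptor that recruits mural cells, was at 15.3 TPM in the AVC, 10.4 TPM in the OFT, 0 in both chambers and 2.62 TPM in the null AVC, which was lower than in the wild type (exact p = 0.00195). *Ndufa4l2* went the other way in the null, at 13.9 TPM against 1.65 TPM (exact p = 0.000532), and *Notch3* was lower there, at 2.39 TPM against 8.56 TPM (exact p = 0.0273). With TMM normalization 1 gene of this list was called higher and 1 lower in the null. Of all genes, 11.9% were called higher and 12.7% lower in the null with HQ totals. Against the chambers the AVC had 6 of 7 tested genes called higher and the OFT 5 of 6. Of these, 5 of the 6 and 4 of the 5 were at 0 in at least 1 chamber library. The shares of all genes called higher were 43.4% and 40.6%. With TMM normalization 5 were called higher in each, beside 25.6% and 26.2% of all genes. *Notch3* was lower in the OFT than in the AVC, at 1.52 TPM against 8.56 TPM (exact p = 0.00793), as was *Ndufa4l2*, which was not listed in the OFT (exact p = 0.0168). No gene of this list was called higher in the OFT than in the AVC, beside 5.22% of all genes, whereas *Rgs5* was 45.2-fold higher there.

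Marker lists of other cells moved with the same comparisons, and their part in the results was not tested. The 8 cushion mesenchyme genes summed to 2935 TPM for the AVC, 3615 TPM for the OFT, 201 TPM for the atria, 194 TPM for the ventricles and 672 TPM for the null AVC. 8 of 8 were called higher in the AVC and in the OFT than in the chambers, and 6 of 8 lower in the null. The 8 erythroid genes summed to 215386 TPM in the atria, 46726 TPM in the ventricles, 27360 TPM in the null AVC and 2432 and 3083 TPM in the AVC and the OFT. The 14 cardiomyocyte genes summed to 9629 TPM in the atria and to 23320 to 28127 TPM in the other libraries. Sums of 7 epicardial genes ran from 89.8 TPM in the OFT to 309 TPM in the atria, of 12 endothelial and endocardial genes from 357 TPM in the atria to 680.04 TPM in the null AVC, and of 10 neural crest genes from 409 TPM in the ventricles to 844 TPM in the OFT. No list of these was at 0 in any library, although 4 of the 10 neural crest genes were at 0 in every library. Called higher and lower in the AVC than in the chambers were 8 and 1 of 14 cardiomyocyte genes, 4 and 1 of 11 endothelial and endocardial genes, 2 and 0 of 7 epicardial genes, 2 and 0 of 5 neural crest genes and 0 and 7 of 8 erythroid genes. In the OFT the counts were 7 and 0 of 14, 4 and 0 of 11, 1 and 3 of 6, 2 and 1 of 5, and 0 and 8 of 8. In the null AVC they were 1 and 1 of 14, 1 and 0 of 12, 0 and 2 of 7, 0 and 1 of 5, and 4 and 0 of 8. Of all genes, 43.4% and 8.12% were called higher and lower in the AVC than in the chambers, and 40.6% and 8.88% in the OFT. In the null the shares were 11.9% and 12.7%. The most abundant genes called included *Tnnt2*, the cardiac troponin T, at 3978 TPM in the AVC and 319 TPM in the chambers (exact p = 4.74e-06), and *Myh6*, the alpha myosin heavy chain, at 290 TPM in the null AVC against 2696 TPM (exact p = 3.73e-05).

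The reference promoters were read for the CArG box, the SRF motif, and for CANNTG, the E-box that TWIST1 binds, in the 250 bases before the start of transcription. 7 of the 10 genes had a window, in 8 windows since *Cald1* has 2 starts, and *Tagln*, *Myh11* and *Myocd* had none. Both strands were searched, and the 2 patterns cannot overlap. A strict CArG box was found in 1 gene, *Cnn2*, where 1.47% of all 32851 windows hold one. It is shown because SRF and its coactivators act through this motif, with 10 bases on each side and the box in capitals (RefSeq, GRCm38.p6, chr10:79988534-79988563, plus strand).
*Cnn2* promoter: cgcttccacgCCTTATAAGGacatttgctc
The box lies 56 to 47 bases before the start. The E-box was found in 5 of the 7 genes, *Acta2*, *Cald1*, *Cnn1*, *Cnn2* and *Tpm2*, and in 66.2% of all windows. *Rgs5* and *Tpm4* had neither motif in this window. A match is a description of the letters, and no match says only that these letters are not there.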

How the data were processed

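Tag-seq was done on 5 pooled libraries of E10.5 mouse heart regions, 1 per group. The deposited values are raw counts of each tag type. The authors kept the first 21 bases of reads, which include the NlaIII site, and tag types with more than 5 tags per library, and the smallest count in the files is 6. Per the labels mm9 was used, but the files hold no coordinates.

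Virtual tags were cut at all NlaIII sites of the 33363 GENCODE M21 transcripts that RefSeq links to, after 20 adenines had been put on each 3′ end. Deposited tags that matched the sense strand of a single gene were summed for it, and TPM are these sums per 1000000 listed (HQ) tags. Of the tags 70.7% to 74.5% matched 1 gene. Tags shared between genes, antisense tags and unmatched tags stay in the totals only.

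Libraries were compared with edgeR 4.0.16 (R 4.3.3) by its two-sided exact test, with the dispersion of 0.12 of the study's methods, HQ totals as library sizes and no covariate, and genes are called at an unadjusted p under 0.05. Against a gene at 0 the ratio is a bound, for which every missing tag type was counted as 5 tags. Levels have exact Clopper-Pearson 95% intervals. Python 3.11.15 with pandas 2.3.3 and scipy 1.17.1 made the tables. The fits were tested on simulated data, and 17 alternative settings were run, DESeq2 1.42.0 size factors among them. With the listing minimum applied to simulated gene counts, 8.64% to 10.7% of unchanged genes were called, against 3.93% to 4.77% without it. Of genes changed 4-fold, 66% to 72.5% were called in the right direction with the minimum applied. The counts were drawn with the same dispersion of 0.12 as the test, so these shares cannot show whether 0.12 suits the libraries.

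The 10 genes and the lists (relatives, contractile and SRF-linked genes, regulators, pericyte and mural, cardiomyocyte, endothelial and endocardial, cushion mesenchyme, epicardial, neural crest and erythroid genes) were chosen with earlier results of these data known. All 10 genes are described. The rule for each list was the counts called and up to 4 genes with the highest level among those called, with relatives of the 10 genes, but for the marker lists of other cells sums and counts are given and few genes are named. Other list genes named for context (*Myl9*, *Srf*, *Smtn*, the lower-level genes called in short lists and the pericyte markers at 0) were chosen after their values were seen. Motifs were searched in the 250 bases before the start of RefSeq promoters. The values of 1 *Tpm2* tag type are not reported here on their own.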

Additional observations from a re-analysis of the deposited data

Results flagged for a closer look

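Tags left out of the gene sums also matched the sequences of the 10 genes, and these values are given because no comparison above uses them. Antisense tags, which match the strand opposite to the gene, were found for 9 of the 10 genes, all but *Myh11*. They were highest in the OFT for *Tpm4* (83.3 TPM), *Acta2* (74.6 TPM), *Cald1* (34.0 TPM), *Cnn1* (16.7 TPM), *Rgs5* (7.59 TPM) and *Tagln* (2.85 TPM). In the *Twist1* null AVC they were highest for *Cnn2* (78.8 TPM), *Tpm2* (30.3 TPM) and *Myocd* (16.3 TPM). For *Tpm4* they were at 43.5 TPM in the AVC, 0 in both chambers and 9.86 TPM in the null AVC. For *Cnn2* they were at 8.07 TPM in the wild-type AVC, and 1022 antisense tags in the null compare with 49 there. The source of the antisense tags was not tested.

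Tags shared with other genes cannot be divided between them. The 2 tag types that *Acta2* shares with others, the larger one with *Actb* and *Lrrc58*, summed to 1475 TPM in the OFT, 1471 TPM in the AVC, 350.2 TPM in the atria, 518 TPM in the ventricles and 452 TPM in the null AVC, which is more than the *Acta2* level itself in all libraries but the null. The tag type that *Tpm2* shares with *Tpm1* was at 177.5 TPM in the OFT, 102 TPM in the AVC, 0 in the atria, 2.60 TPM in the ventricles and 81.5 TPM in the null AVC. A further *Myocd* tag of another transcript was at 1.14 TPM in the OFT and not listed elsewhere.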

How the results depend on the processing

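The counts of genes called depended on the setting, and no count below comes from replicates. The share of all genes called also moved with the setting, and it is given above only for HQ totals and, in part, TMM normalization. A smaller count is therefore not by itself a result about the 10 genes. For the AVC against the chambers, 8 genes called higher became 3 with Benjamini-Hochberg adjustment, 5 tags for each missing tag type or the ventricles alone as control, 2 with TMM normalization or DESeq2 size factors, 1 with a dispersion of 0.4, 4 with totals without haemoglobin and 5 with the 3′-most site only or the leading tag type only. Also there, 0 genes called lower became 1 with the 3′-most site only. For the OFT against the chambers, 8 genes called higher became 4 with a dispersion of 0.4 and 5 with the 3′-most site only. Also there, 0 genes called lower became 1 with the 3′-most site only. For the OFT against the AVC, 2 genes called higher became 1 with Benjamini-Hochberg adjustment, a dispersion of 0.4, the 3′-most site only or tags that start with T left out and 4 with a dispersion of 0.05. Also there, 0 genes called lower became 1 with a dispersion of 0.05. For the ventricles against the atria, 2 genes called higher became 1 with Benjamini-Hochberg adjustment, a dispersion of 0.4 or more than 10 tags per tag type and 0 with at least 50 tags per gene or 5 tags for each missing tag type. For the null against the wild-type AVC, 1 gene called higher became 0 with a dispersion of 0.4 or tags that start with T left out. There, 2 genes called lower became 0 with Benjamini-Hochberg adjustment or a dispersion of 0.4 and 1 with TMM normalization, DESeq2 size factors, at least 50 tags per gene, more than 10 tags per tag type, 1 listing limit in TPM, the leading tag type only or 5 tags for each missing tag type.

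Log2 ratios that changed sign were these. With tags that start with T left out they became *Acta2* 2.39 (AVC against chambers), *Cnn1* -0.098 (ventricles against atria) and *Cnn1* 0.28, *Cald1* 1.13 (null against wild-type AVC). With the atria alone as control they became *Acta2* 0.24 (AVC against chambers). With the 3′-most site only they became *Tagln* -1.77 (AVC against chambers), *Tagln* -1.57 (OFT against chambers), *Acta2* -0.057, *Cnn2* -0.057 (OFT against AVC) and *Acta2* -1.36, *Tagln* 1.44, *Cnn2* -0.51 (null against wild-type AVC). With TMM normalization they became *Cnn1* -0.39 (AVC against chambers), *Cnn1* -0.22, *Cald1* -0.021 (ventricles against atria) and *Cnn1* 0.17, *Cald1* 0.12 (null against wild-type AVC). With DESeq2 size factors they became *Cnn1* -0.43 (AVC against chambers), *Cnn1* -0.0058 (OFT against chambers), *Cnn1* -0.21, *Cald1* -0.011 (ventricles against atria) and *Cnn1* 0.17, *Cald1* 0.12 (null against wild-type AVC). With the leading tag type only they became *Tpm2* -0.0095 (OFT against AVC) and *Tpm2* 0.011 (ventricles against atria). With totals without haemoglobin they became *Cnn1* -0.19 (ventricles against atria). With 1 listing limit in TPM they became *Myocd* -0.015 (null against wild-type AVC). The values for the 3′-most site only rest on few tags, and all but *Cnn2* -0.51 are bounds against a gene at 0. At that site *Acta2* kept 6 AVC tags and none elsewhere. *Cnn2* kept 6 AVC tags, 9 null AVC tags and none elsewhere. *Tagln* kept 13 tags (atria), 12 (ventricles) and 29 (null AVC), but none for the AVC or the OFT. The sign changes of these 3 genes at that site therefore say little about their levels.

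Of 686 log2 ratios of single genes under the alternatives, 581 kept their direction and their side of the threshold, 71 lost the call and 7 gained it. The cause of these changes was not tested. No paired analysis was possible because each group has 1 library. Only the chamber arm holds 2 libraries: without the atria library the AVC had 3 calls of higher genes and the OFT 7, and without the ventricle library 7 and 8. Depth limits *Myh11* (6 tags in all), *Rgs5* and *Myocd* in the chambers (8 and 25 tags), where the listing minimum hides up to 5 tags of every tag type.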
